A study of Mus musculus with 9 samples.

Results

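The transcription factors that direct T-cell development were examined here as a set of 10 named genes, Lef1, Tcf7, Bcl11b, Gata3, Runx1, Runx3, Tox, Zbtb7b, Ikzf1 and Tcf12. Every probe set that the array annotation assigns to these genes alone was taken, which gave 27 probe sets of 9 genes among the 45101 on the array; no probe set carried the name Tcf7 in the annotation used, so Tcf7 was not analysed here. The RNA came from T-cell lymphomas of the genotype G3 Atm-/-TERT-ER. Atm, missing in them, encodes a kinase of the DNA damage response. TERT-ER joins the catalytic subunit of telomerase to an oestrogen receptor domain, so that the ligand 4-OHT (4-hydroxytamoxifen) controls its activity. There were 3 tumours labelled telomerase, carried to passage 4 in SCID mice given 4-OHT, 5 tumours labelled ALT (alternative lengthening of telomeres), carried to passage 4 in SCID mice given vehicle, and 1 parental tumour labelled as telomerase-positive. All groups share the Atm deletion and the TERT-ER allele, and SCID hosts lack mature T and B cells but keep myeloid and natural killer cells. The series' design states that both kinds of tumour came from the same parental lines. The promoter that drives TERT-ER, the age and sex of the animals, the passage of the parental tumour, and whether tumours of a group grew in separate animals are not stated in the labels. The p-values therefore measure the spread between these samples, which may be technical. Drug, telomerase activity and ALT differ together between the groups and cannot be told apart.

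T cells are made in the thymus from progenitors that give up other fates in steps. NOTCH signals start the process, and TCF1 (from Tcf7), GATA3 and then BCL11B commit the cells to the T lineage, while E proteins such as HEB (from Tcf12), RUNX factors and the zinc finger protein Ikaros (from Ikzf1) act on the T-cell receptor genes and on proliferation. At later stages TOX and ThPOK (from Zbtb7b) promote the CD4 helper fate and RUNX3 the CD8 cytotoxic fate, and several of these factors act as tumour suppressors or oncogenes in T-cell leukaemia.

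The RUNX genes carry a recognisable feature at their distal start sites, and they are shown here because Runx1 and Runx3 moved in opposite directions in the tumours. RefSeq promoter windows (GRCm38.p6, 250 bases before to 50 bases after an annotated start) were on hand for 9 of the 10 genes, with 19 starts in all; Tox had none. The windows of the more upstream start of Runx1 (chr16:92826025-92826324, minus strand) and of Runx3 (chr4:135120395-135120694, plus strand) are printed 5′ to 3′ along the gene, with matches to the RUNX motif TGTGGT or its reverse complement ACCACA in capitals.
Runx1 upstream start: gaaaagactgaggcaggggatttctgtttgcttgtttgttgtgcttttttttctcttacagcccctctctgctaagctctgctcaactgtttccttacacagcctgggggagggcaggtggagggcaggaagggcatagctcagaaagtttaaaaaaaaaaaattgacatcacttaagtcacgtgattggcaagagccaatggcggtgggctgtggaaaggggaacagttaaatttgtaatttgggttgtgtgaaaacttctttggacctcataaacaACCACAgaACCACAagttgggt
Runx3 upstream start: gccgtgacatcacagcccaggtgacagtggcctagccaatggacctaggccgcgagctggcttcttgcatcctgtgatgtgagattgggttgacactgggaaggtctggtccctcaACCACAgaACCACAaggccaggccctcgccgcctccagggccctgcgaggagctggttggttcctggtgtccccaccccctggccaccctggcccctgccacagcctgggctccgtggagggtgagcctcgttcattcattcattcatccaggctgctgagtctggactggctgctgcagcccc
Both windows hold 2 matches whose first bases lie 8 bases apart. The longest run of letters common to the 2 windows is 18 bases long and contains both matches (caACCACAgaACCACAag). At least 1 RUNX match was found, on either strand, in 16.8% of 32851 promoter windows of the same length. Among the member windows it was found in 3 of 19, the other being at a Zbtb7b start. A pair at this spacing on 1 strand was found in 7 windows (0.0213%), of 7 genes that include Runx1, Runx2 and Runx3. The matches lie 28 and 36 bases downstream of the Runx1 start and at -134 and -126 from the Runx3 start, counting the start base as 0. A match is a description of letters and does not show binding.

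The motif of the TCF and LEF factors, CTTTGA on either strand, occurred in 2 of the 19 member windows, at the most downstream of 4 Lef1 starts (chr3:131156044-131156343, plus strand) and at the Bcl11b start (chr12:108003365-108003664, minus strand), against 16% of all windows. These 2 windows are shown because they are the member windows with a match. Gata3, Runx1 and Tcf12, which fell in ALT tumours as Lef1 and Bcl11b did, had no match at any start. Capitals mark the TCF and LEF matches.
Lef1 downstream start: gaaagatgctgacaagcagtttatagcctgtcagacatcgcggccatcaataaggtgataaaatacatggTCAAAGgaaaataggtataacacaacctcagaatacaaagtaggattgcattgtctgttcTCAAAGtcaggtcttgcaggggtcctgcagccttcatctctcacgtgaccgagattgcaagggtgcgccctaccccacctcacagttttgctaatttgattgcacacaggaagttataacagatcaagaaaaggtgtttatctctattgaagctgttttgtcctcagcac
Bcl11b start: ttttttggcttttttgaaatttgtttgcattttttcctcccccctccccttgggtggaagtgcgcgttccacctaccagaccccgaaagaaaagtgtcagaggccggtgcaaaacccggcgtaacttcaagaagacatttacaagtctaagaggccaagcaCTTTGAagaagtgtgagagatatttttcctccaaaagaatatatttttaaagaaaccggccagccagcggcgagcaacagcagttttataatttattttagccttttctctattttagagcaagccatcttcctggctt
The Lef1 window holds 2 such matches and the Bcl11b window holds 1.

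Of the other motifs searched on both strands, the Gata3 family motif AGATAA was in 1 of the 19 member windows (11.2% of all windows), the E-box CAGCTG in 4 (16.3%), the E-box CAGGTG in 5 (20.2%) and TGGGAA (Ikaros) in 5 (25.6%). Each motif was searched by itself, so matches of different motifs may share bases. These shares in a small number of windows, some of them from the same gene, are given as a description.

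The array medians lay between 39.8 and 43.8 on the authors' linear MAS5 signal scale, and between 28.2% and 30.7% of probe sets were below 16. Libraries differed in tissue transcripts, while their medians were close. The summed signal of 10 pancreatic acinar genes was between 60650 and 138602 in telomerase 3, ALT 1, ALT 2 and ALT 5, and between 284 and 750 in the other arrays. The summed signal of 8 skeletal muscle genes was 8119 in telomerase 1 and 12012 in the parental tumour and at most 538 elsewhere. Of 10 T-cell marker genes with a probe set, all passed the filter on low values; 3 were lower in ALT (Cd3d, Cd3e and Cd3g), 1 was higher (Cd2) and 6 did not pass the test. Their summed signal was 34716 to 37517 in telomerase tumours and 26511 to 32852 in ALT tumours, without overlap; without these 3 CD3 genes, a split made after the values were seen, it was 14835 to 15679 and 14230 to 17095, with overlap. In bulk tissue fewer tumour cells and less RNA per cell cannot be told apart. Summed B-cell markers (6 genes) were at 545 to 660 in telomerase and 556 to 751 in ALT tumours, and summed markers of NK and innate lymphoid cells (4 genes) at 59.2 to 82.8 and 55.8 to 80.5. Summed myeloid markers (10 genes) were at 6113 to 8906 and 6304 to 9705, with overlap. Of these genes 9 did not pass, and Cd14 rose from a mean of 88.05 to 169 without overlap. Its log2 change was 0.83 (limma adjusted p = 0.0140), and it passed in 6 of the 8 fits that leave out an array. Groups were compared with limma on log2(signal + 16), and genes were called at a Benjamini-Hochberg adjusted p under 0.05.

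Among the members, 5 genes fell in ALT tumours (Lef1, Runx1, Tcf12, Bcl11b and Gata3), 1 rose (Runx3) and 3 did not pass the test (Tox, Zbtb7b and Ikzf1). All 9 passed the filter on low values and were tested. The 6 called members are 66.7% of those tested, against 17.5% of all 12351 genes tested; 10.0% of all genes were called lower and 7.47% higher. In each of the 6 called members the groups did not overlap, as in 24.7% of all genes. The median log2 change of the 9 members was -0.41, beside -0.01 over all genes tested. The members were chosen with earlier results of these data known, so these shares and medians are a description only. The count was 5 without telomerase 2 and with the replicate number as a block, 2 in the arrays without pancreatic transcripts and 3 in the arrays with them. It was 6 with quantile normalisation, median centring, either other pseudocount and either other filter on low values, and without telomerase 1, the passage 4 array with muscle transcripts. The balance over all genes depended on scaling. In the main fit 923 genes were called higher and 1237 lower, and with quantile normalisation 1113 and 1029. The members stayed at 1 higher and 5 lower in both. The plot of signals by array shows the 9 genes tumour by tumour.

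**Figure D1:**
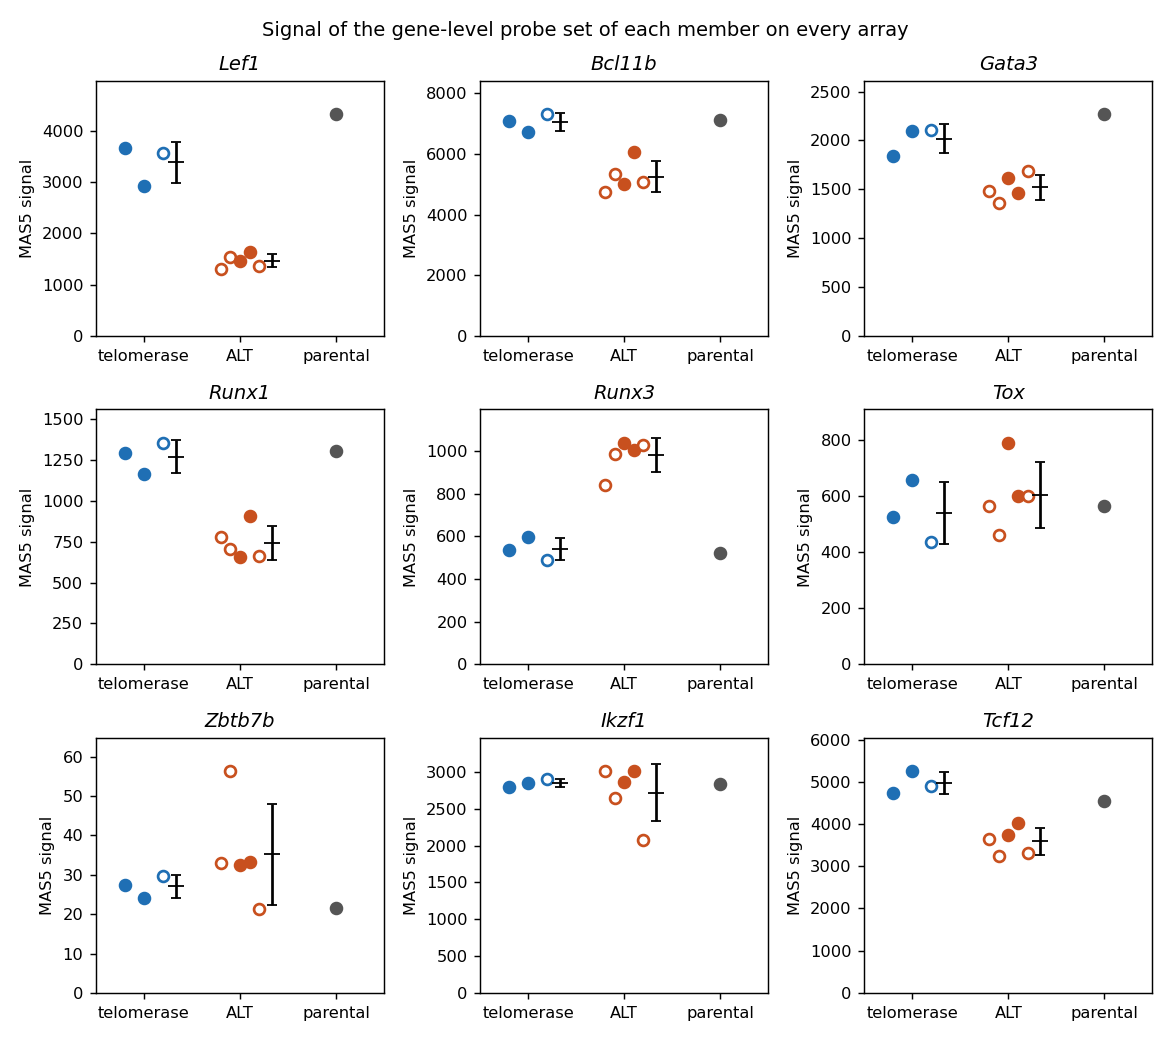
MAS5 signal (linear scale from 0, vertical axis) of the gene-level probe set of each member in telomerase, ALT and parental tumours; points are arrays, open points are arrays with pancreatic acinar transcripts, and bars are the mean and SD. Lef1, Bcl11b, Gata3, Runx1 and Tcf12 have all 5 ALT values below all 3 telomerase values, Runx3 has all 5 above, and Tox, Zbtb7b and Ikzf1 overlap.

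Lef1, on chromosome 3, had the largest change. It encodes an HMG-box factor that binds β-catenin and, with TCF1, supports early thymocytes and the CD4 and CD8 choice. Its signal (probe set 1454734_at) was 3662, 2928 and 3572 in telomerase 1 to 3 and 1315, 1543, 1468, 1628 and 1369 in ALT 1 to 5. The ALT tumours lay in a narrow band, and the highest of them was well below the lowest telomerase tumour. The parental tumour, at 4319, was above both groups. The means were 3387 ± 400 (SD, n = 3) and 1464 ± 127 (SD, n = 5), a log2 change of -1.20 (SE 0.0994, 95% interval -1.42 to -0.98, limma adjusted p = 7.95e-05). A separate Lef1 probe set, 1421299_a_at, read 882, 702 and 802 in telomerase tumours and 229 to 324 in ALT tumours, with 1014 in the parental tumour, and fell by 1.45 on the log2 scale (adjusted p = 6.30e-05 in the fit of all probe sets). Both probe sets thus ordered the groups alike.

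Runx1 and Runx3 encode DNA-binding subunits that pair with the same partner, CBFβ. Runx1 is needed from blood stem cells to thymocytes, and Runx3 represses Cd4 and is a defining factor of CD8 T cells. Runx1, on chromosome 16 (1422864_at), was at 1293, 1161 and 1353 in telomerase tumours, at 776, 702, 655, 903 and 664 in ALT tumours and at 1302 in the parental tumour. All ALT values were below all others. The log2 change was -0.77 (SE 0.117, 95% interval -1.03 to -0.51, limma adjusted p = 0.00186), with means of 1269 ± 98.3 (SD, n = 3) and 740 ± 103 (SD, n = 5). Of the 6 Runx1 probe sets, 4 fell by 0.74 to 0.82. The other 2, 1427650_a_at and 1452530_a_at, had signals of 44.4 to 87.8 on all arrays, overlapping groups, with estimates of 0.07 (log2, adjusted p = 0.792) and -0.11 (adjusted p = 0.631).

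Runx3, on chromosome 4, was the only member that rose. Its signal (1440275_at) was 534, 595 and 490 in telomerase tumours, 524 in the parental tumour and 843, 988, 1039, 1007 and 1031 in ALT tumours. ALT 1 was the lowest ALT tumour and was still above every tumour with telomerase. The means were 540 ± 52.7 (SD, n = 3) and 982 ± 80.1 (SD, n = 5), a log2 change of 0.84 (SE 0.0999, 95% interval 0.62 to 1.07, limma adjusted p = 0.000516). The other Runx3 probe set, 1421467_at, lay below the filter on low values, at 3.89 to 14.7 in telomerase tumours and 12.0 to 30.8 in ALT tumours, and was not tested.

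The opposite moves show in the log2 ratio of Runx3 to Runx1 on the same array, a comparison chosen with the values known. The ratio was -1.25, -0.95 and -1.44 in telomerase tumours, -1.29 in the parental tumour and 0.12, 0.48, 0.65, 0.15 and 0.62 in ALT tumours. The difference between the groups was 1.62 (two-sided exact permutation test over the 56 splits of 8 arrays, p = 0.0357, adjusted over 4 family pairs 0.0714). Both genes separated the groups without overlap and in opposite directions, so this p had to be the smallest the design gives. It adds nothing to the results of the single genes. Since signals of different probe sets have no common scale, the sign of a single ratio says nothing about which gene is more abundant. The difference between arrays shows only that the balance of Runx3 to Runx1 signal changed. The plot of Runx3 against Runx1 shows the groups apart on both axes.

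**Figure D2:**
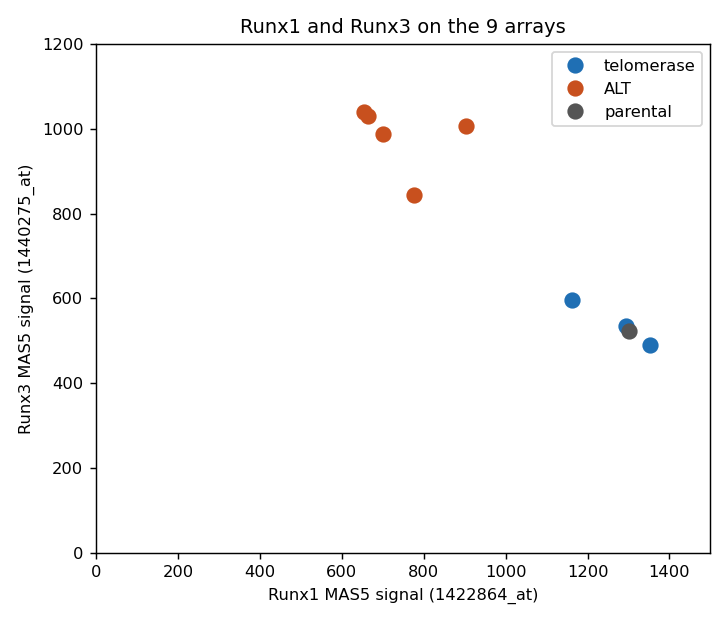
MAS5 signal of Runx3 (1440275_at, vertical axis) against Runx1 (1422864_at, horizontal axis) on the 9 arrays, both linear from 0; each point is an array. The 3 telomerase arrays and the parental array lie at Runx1 of 1161 to 1353 and Runx3 of 490 to 595, and the 5 ALT arrays at Runx1 of 655 to 903 and Runx3 of 843 to 1039.

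Tcf12, on chromosome 9, encodes the E protein HEB, which activates T-cell receptor and pre-T-cell receptor genes through E-boxes. Its gene-level probe set, 1427670_a_at, read 4744, 5250 and 4910 in telomerase tumours, 4538 in the parental tumour and 3648, 3244, 3740, 4030 and 3318 in ALT tumours. The parental tumour was slightly below the telomerase range and above every ALT tumour. The means of 4968 ± 258 (SD, n = 3) and 3596 ± 321 (SD, n = 5) gave a log2 change of -0.47 (SE 0.0800, limma adjusted p = 0.00358). In the fit of all probe sets 4 of its 5 probe sets fell, by 0.44 (1439209_at, adjusted p = 0.0344) to 0.91 (1439619_at, adjusted p = 0.000495). The remaining one, 1421908_a_at, had a log2 change of -0.30 (adjusted p = 0.0742), with ALT 3, at 967, above telomerase 1, at 955. The probe sets of the gene differed in the size of the change, and whether they read different transcripts was not tested.

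Bcl11b, on chromosome 12, encodes the zinc finger protein that seals T-lineage commitment and is a tumour suppressor in mouse thymic lymphoma. Its signal (1435227_at) was 7093, 6719 and 7308 in telomerase tumours, 7125 in the parental tumour and 4762, 5330, 5009, 6074 and 5091 in ALT tumours. ALT 4 came closest to the telomerase tumours. The means were 7040 ± 298 (SD, n = 3) and 5253 ± 502 (SD, n = 5), with a log2 change of -0.43 (SE 0.0779, limma adjusted p = 0.00516). All 4 Bcl11b probe sets fell, by 0.43 to 0.91, and in each the groups did not overlap. The largest fall was in 1452966_at, from 2843, 2246 and 3062 in telomerase tumours to 1037, 1495, 1229, 2016 and 1557 in ALT tumours. The weakest support was for 1438784_at (log2 change -0.69, adjusted p = 0.0480), where ALT 4, at 1392, nearly reached telomerase 2, at 1406.

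Gata3, on chromosome 2, encodes a zinc finger factor required for early T-cell progenitors and for the CD4 lineage, and it had a single probe set, 1448886_at. Its signal was 1845, 2100 and 2108 in telomerase tumours, 2268 in the parental tumour and 1484, 1361, 1615, 1461 and 1683 in ALT tumours. The groups did not overlap, though ALT 5 and telomerase 1 were near each other. The means were 2018 ± 149 (SD, n = 3) and 1521 ± 128 (SD, n = 5), with a log2 change of -0.41 (SE 0.0887, limma adjusted p = 0.0123). Gata3 was the called member that depended on a single array: without telomerase 2 its adjusted p was 0.0533 at a log2 change of -0.38, and the other 5 called members passed whichever array was left out.

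The 3 members that did not pass had overlapping groups. Ikzf1, on chromosome 11, which encodes Ikaros, a lymphoid zinc finger protein whose loss leads to T-cell leukaemia in mice, was at 2791, 2851 and 2907 in telomerase tumours and at 3011, 2645, 2863, 3011 and 2075 in ALT tumours (1436312_at). ALT 5 was the low one, and it also had the highest summed acinar signal, 138602. ALT 2, telomerase 3 and ALT 1, with acinar sums of 101138, 82448 and 60650, read 2645, 2907 and 3011. With the mean log2 acinar signal as a covariate the Ikzf1 log2 change was -0.03. Whether acinar content bears on the Ikzf1 signal was not tested. The log2 change was -0.08 (95% interval -0.34 to 0.18, limma adjusted p = 0.691), and 0.01 without ALT 5. The second Ikzf1 probe set, 1421303_at, had a log2 change of -0.15 (adjusted p = 0.516).

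Tox, on chromosome 4, encodes an HMG-box protein needed for CD4 T-cell development and active in exhausted T cells. It was at 526, 656 and 435 in telomerase tumours and at 564, 462, 790, 600 and 601 in ALT tumours (1425484_at). The SD within each group was larger than the gap between the means, 539 ± 111 (SD, n = 3) and 603 ± 119 (SD, n = 5). The log2 change was 0.16 (95% interval -0.23 to 0.54, limma adjusted p = 0.580), and the other 2 Tox probe sets pointed down, with -0.16 (adjusted p = 0.654) and -0.23 (adjusted p = 0.537), so no direction is given. Across the 3 probe sets ALT 3 was the highest ALT tumour, at 790, 192 and 325, and ALT 2 the lowest, at 462, 92.0 and 146.

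Zbtb7b, on chromosome 3, encodes ThPOK, which fixes the CD4 fate and opposes Runx3. Its brighter probe set, 1455071_at, read 27.4, 24.1 and 29.6 in telomerase tumours and 33.01, 56.3, 32.4, 33.3 and 21.2 in ALT tumours, with 21.5 in the parental tumour. The log2 change was 0.22 (95% interval -0.24 to 0.68, limma adjusted p = 0.510). All but that of ALT 2 are below their array's median, and the deposited table holds no detection calls. The dimmer probe set, 1420663_at, was at 7.03 to 22.5 on all arrays and fell below the filter. The wide interval covers both a fall and a rise, so neither was detectable here.

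At the level of probe sets 25 of the 27 passed the filter on low values. Of these, 15 fell, 1 rose and 9 did not pass; the called share is 16 of 25, against 20.1% of all 22343 probe sets tested, of which 12.4% were lower and 7.70% higher. The log2 changes ran from -1.45 to 0.84. Within the 5 genes that fell, no probe set passed in the opposite direction. Probe sets of a gene read the same RNA and are not independent, and the members were chosen with earlier results known. The plot of probe set changes gives each estimate with its interval.

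**Figure D3:**
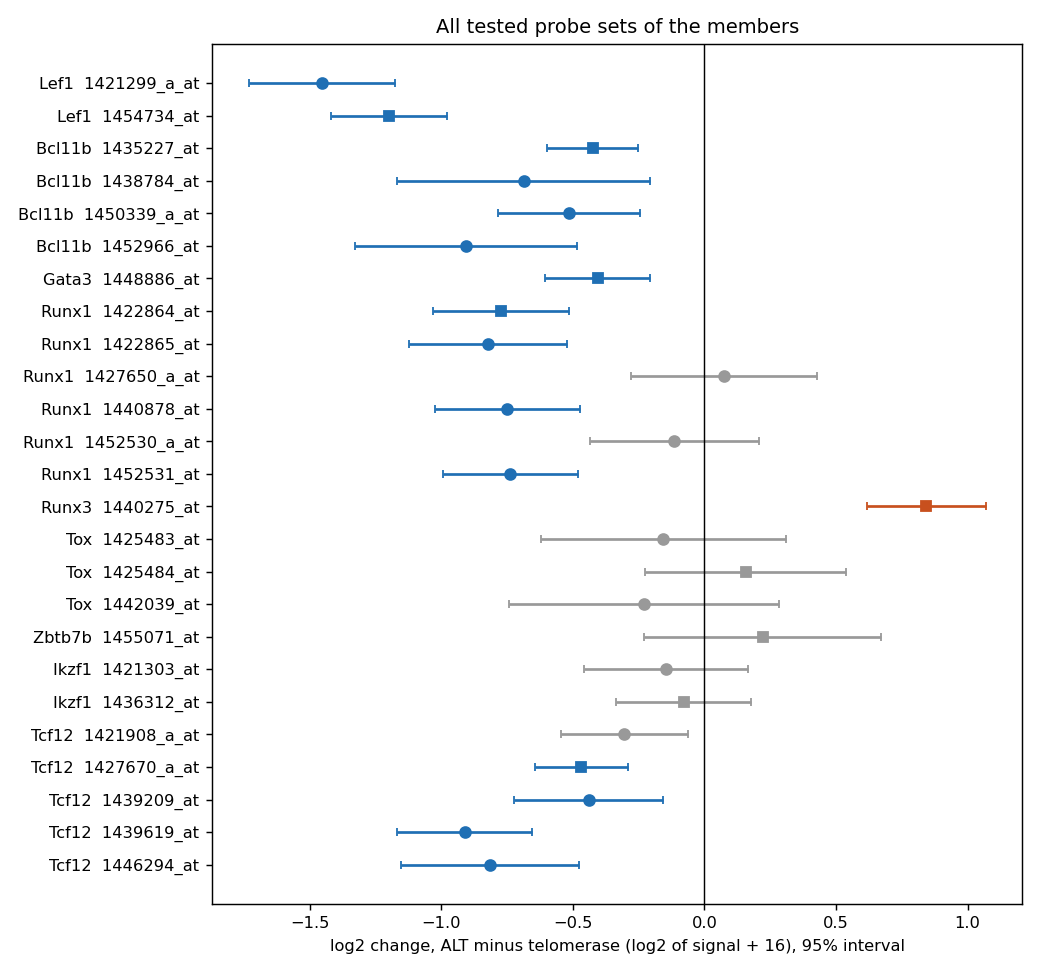
Log2 change in signal, ALT minus telomerase (horizontal axis), with 95% intervals, for the 25 member probe sets that passed the filter; squares mark the gene-level probe set, blue marks probe sets that fell, orange those that rose, grey those that did not pass. Lef1 lies furthest to the left, at -1.45 and -1.20, and Runx3, at 0.84, is the only orange point.

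The parental tumour lay on the telomerase side of the gap for all 6 called members. It was inside the telomerase range for Bcl11b, Runx1 and Runx3, above it for Lef1 and Gata3 and below it for Tcf12. With 1 array it has no replicate and was not tested. Counting it as a telomerase tumour left the 6 calls in place, with a log2 change of -1.29 for Lef1 and 0.85 for Runx3.

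Pancreatic transcripts were found in 1 of 3 telomerase and 3 of 5 ALT arrays, so the members were also compared within each kind of array. The directions of the 6 called members were the same in both. In the arrays without these transcripts (2 telomerase, 2 ALT) Lef1 had a log2 change of -1.08 (limma adjusted p = 0.00832) and Runx3 of 0.84 (0.0151), and the other 4 no longer passed: Runx1 -0.66 (0.0761), Tcf12 -0.36 (0.0717), Bcl11b -0.32 (0.128) and Gata3 -0.35 (0.136). In the arrays with them (1 telomerase, assumed to vary like the 3 ALT arrays) Lef1 had -1.34 (0.0112), Runx1 -0.91 (0.0418) and Runx3 0.93 (0.0479), while Bcl11b with -0.53 (0.0842), Tcf12 with -0.53 (0.1001) and Gata3 with -0.48 (0.200) missed the threshold. With the mean log2 signal of the acinar genes as a covariate over all 8 arrays the 6 members passed, Gata3 with a limma adjusted p of 0.0215. Fewer arrays enter the split fits, and over all genes 6.77% and 2.70% were called. The plot of changes by pancreatic transcripts sets the estimates side by side.

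**Figure D4:**
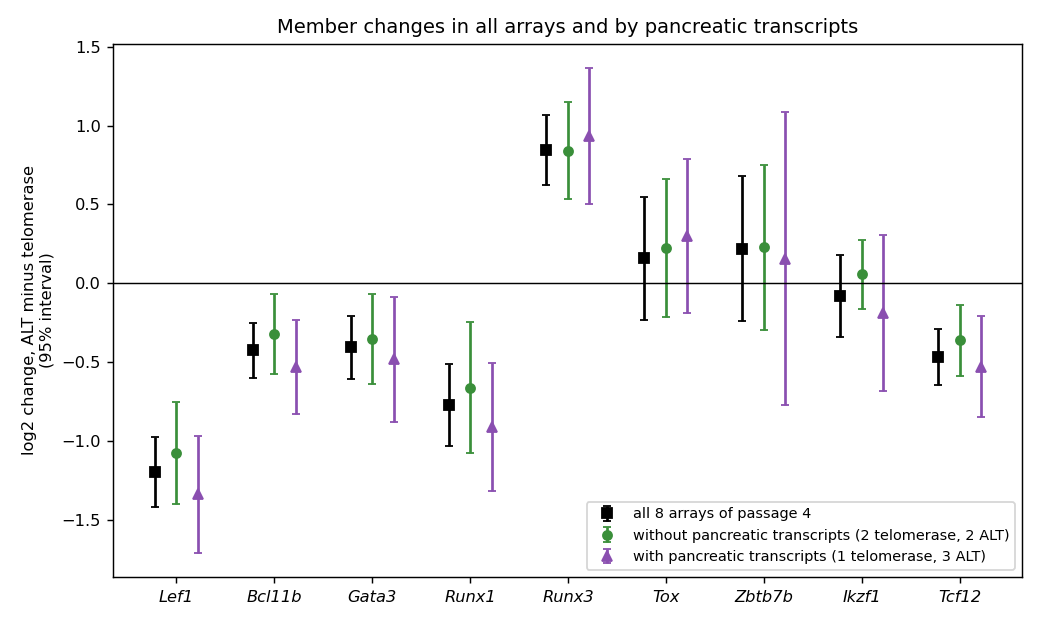
Log2 change in signal, ALT minus telomerase (vertical axis), with 95% intervals, of the 9 members in all 8 passage 4 arrays (black), in the 4 arrays without pancreatic acinar transcripts (green) and in the 4 arrays with them (purple). For Lef1 the estimates are -1.20, -1.08 and -1.34, and for Runx3 0.84, 0.84 and 0.93; only Ikzf1 changes sign, at 0.06 in green.

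Gene order in RefSeq (GRCm38.p6) was used to ask whether genes next to the members moved with them. Among the 20 tested genes nearest to Lef1 on chromosome 3, 0 were called higher and 4 lower, with a median log2 change of -0.14. Over the whole chromosome the median was -0.10, and 90 of 605 genes were lower. Around Runx1 on chromosome 16, 0 were higher and 6 lower, with a median of -0.19, beside -0.07 for the whole chromosome, where 66 of 411 were lower. Around Runx3 on chromosome 4, 0 were higher and 2 lower, with a median of -0.03, beside -0.01 for the chromosome. Around Tcf12 0 were higher and 1 lower (median -0.11, chromosome 0.01), around Bcl11b 1 higher and 2 lower (median 0.08, chromosome -0.10) and around Gata3 1 higher and 1 lower (median 0.03, chromosome 0.02). On chromosome 4, 62 of 736 tested genes were called lower, and on chromosome 9, 50 of 695. The counts were 64 of 440 on chromosome 12 and 61 of 965 on chromosome 2.

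The lists of related genes were chosen with results of these tumours known. Close relatives and the shared partner of the members changed in both directions. Of 15 tested relatives, 3 rose and 1 fell (4 of 15, median log2 change 0.08), which is 26.7% beside 17.5% of all genes. Cbfb, which encodes the common partner of RUNX1 and RUNX3, rose from 2671 ± 131 (SD, n = 3) to 3622 ± 382 (SD, n = 5), a log2 change of 0.43 (limma adjusted p = 0.00852). The E-protein genes split: Tcf3, which encodes E2A, fell from 919 ± 157 to 599 ± 63.7 (log2 change -0.60, adjusted p = 0.0117), as Tcf12 did, and Tcf4, which encodes E2-2, rose from 1206 ± 75.04 to 1694 ± 218 (log2 change 0.48, adjusted p = 0.0159). Tox2, a relative of Tox, had a log2 increase of 0.32 (adjusted p = 0.0242); its probe set, like those of Hdac2, Nfatc3 and Foxo1, carries the suffix _s_at, used for probes that can match more than a single transcript. Without telomerase 1, 2 relatives rose and 0 fell, and without telomerase 2, 1 rose and 1 fell. Tcf3 did not pass without telomerase 1, Tcf4 without telomerase 1 or 2, and Tox2 without telomerase 2 or 3.

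Pairs within a family were also set against each other on the same array, the 4 pairs chosen with the values known. The log2 ratio of Tcf4 to Tcf12 was -2.004, -2.17 and -1.91 in telomerase tumours and -1.36, -0.84, -0.96, -1.14 and -1.13 in ALT tumours, a difference of 0.94 (two-sided exact permutation p = 0.0357, adjusted over the 4 pairs 0.0714). The groups did not overlap in this ratio. That follows from Tcf4 and Tcf12 each separating the groups in opposite directions, so this p was fixed in advance as well. The ratios of Tcf3 to Tcf12 (difference -0.13, exact permutation p = 0.464) and of Tox2 to Tox (difference 0.17, exact permutation p = 0.536) overlapped between the groups.

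Among partners and cofactors, 3 of 31 tested genes rose and 3 fell (median log2 change -0.07); the called share of 19.4% is near the 17.5% of all genes. Besides Cbfb, the corepressor gene Tle1, whose product binds TCF and RUNX proteins, rose by 0.74 (adjusted p = 0.00857), and Zfpm1, which encodes the GATA partner FOG1, rose by 0.58 (adjusted p = 0.00907). Id3, an inhibitor that holds E proteins off DNA, fell from 777 ± 186 (SD, n = 3) to 324 ± 122 (SD, n = 5), a log2 change of -1.26 (limma adjusted p = 0.00956). Pygo2, a coactivator in the β-catenin complex, fell by 0.49 (adjusted p = 0.00623), and the histone deacetylase gene Hdac2 fell by 0.43 (adjusted p = 0.00647). Id3 missed the threshold without telomerase 1 (adjusted p = 0.0530). In this list 3 rose and 7 fell with the parental tumour counted as a telomerase tumour, 1 rose and 0 fell with the replicate number as a block, 2 rose and 1 fell in the arrays without pancreatic transcripts, and 0 passed in the arrays with them.

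Of 31 other regulators of T-cell development that were tested, 7 rose and 3 fell (median log2 change -0.01). The share called was 32.3%, beside 17.5% of all genes. Rora, a nuclear receptor gene of innate lymphoid and TH17 cells, rose from 34.0 ± 12.4 (SD, n = 3) to 119 ± 12.2 (SD, n = 5), a log2 change of 1.46 (limma adjusted p = 0.000412). Of the 3 NFAT genes tested, which act downstream of calcium signals from the T-cell receptor, Nfatc3 rose by 0.72 (adjusted p = 0.000430), Nfatc1 fell by 1.17 (adjusted p = 0.00442) and Nfatc2 had a log2 change of 0.05 (adjusted p = 0.826). Elf1, an ETS factor gene, rose by 0.96 (adjusted p = 0.00873), Satb1, which encodes a chromatin organiser of thymocytes, by 0.64 (adjusted p = 0.0256, with overlapping groups and not passing without telomerase 1, telomerase 2, ALT 1 or ALT 2), and Foxo1, which encodes a factor that maintains Il7r in naive T cells, by 0.58 (adjusted p = 0.00382). The count was 4 rising and 2 falling without telomerase 1, without telomerase 2 and without ALT 1, and 5 and 1 with the acinar level as a covariate.

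Of 24 tested genes of T-cell identity and function, many of them known targets of the members, 4 rose and 4 fell (median log2 change 0.02). That is 33.3%, beside 17.5% of all genes. Of the 4 CD3 chain genes 3 fell: Cd3g from 8828 ± 765 (SD, n = 3) to 5001 ± 637 (SD, n = 5), a log2 change of -0.82 (limma adjusted p = 0.000760), Cd3e by 0.50 (adjusted p = 0.0203) and Cd3d by 0.39 (adjusted p = 0.00414). Cd3e did not pass without telomerase 1 or without telomerase 3. Cd247, the gene of the zeta chain, was at 2769 ± 374 and 2719 ± 385 (log2 change -0.03, adjusted p = 0.903). The adhesion gene Cd2 rose from 317 ± 46.6 to 629 ± 114 (log2 change 0.94, adjusted p = 0.00368). Cd8b1, the coreceptor gene that Runx3 is known to support, rose from 468 ± 91.5 to 927 ± 156 (log2 change 0.96, adjusted p = 0.00362), while Cd8a was at 1387 ± 154 and 1477 ± 280 (adjusted p = 0.781). Ccr7, a homing receptor gene, had signals below the pseudocount in 4 of 5 ALT tumours and a log2 change of -1.41 that depends on it (adjusted p = 0.00421). Cd4, named after its values were seen, rose from 48.6, 33.8 and 34.7 in telomerase tumours to 135, 90.9, 70.2, 59.4 and 161 in ALT tumours (limma adjusted p = 0.0261), and passed in 4 of the 8 fits that leave out an array. Without telomerase 1, 2 rose and 3 fell.

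Of 12 genes known as targets of β-catenin with TCF or LEF factors, 6 passed the filter on low values, and of these 1 rose and 1 fell. The called share of the 6 was 33.3%, beside 17.5% of all genes. Ccnd1, which encodes cyclin D1, rose from 893 ± 428 (SD, n = 3) to 1894 ± 207 (SD, n = 5), a log2 change of 1.16 (limma adjusted p = 0.00731). Its telomerase tumours were uneven, at 667, 1387 and 625, with 1379 in the parental tumour and 1586 in ALT 2, the lowest ALT tumour. Tnfrsf19 fell by 1.04 (limma adjusted p = 0.0325), with overlapping groups. The Tnfrsf19 call was lost without telomerase 1, without telomerase 2 and without each of ALT 1, ALT 2, ALT 4 and ALT 5. Axin2, a widely used readout of this pathway that is named after its values were seen, was at 418 ± 35.9 (SD, n = 3) and 394 ± 59.7 (SD, n = 5), with a log2 change of -0.09 (limma adjusted p = 0.698). Rnf43, also named after its values were seen, lay below the filter and was not tested in the main fit. It read 28.1, 32.5 and 35.1 in telomerase tumours and 8.58, 3.72, 11.8, 6.11 and 5.22 in ALT tumours. With no filter on low values, 1 gene of this list rose and 2 fell. In the related lists together 29 genes were called, with Cbfb, which stands in 2 lists, counted once, against 14 in the arrays without pancreatic transcripts and 3 in the arrays with them. The plot of the named list genes shows the direction of each.

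**Figure D5:**
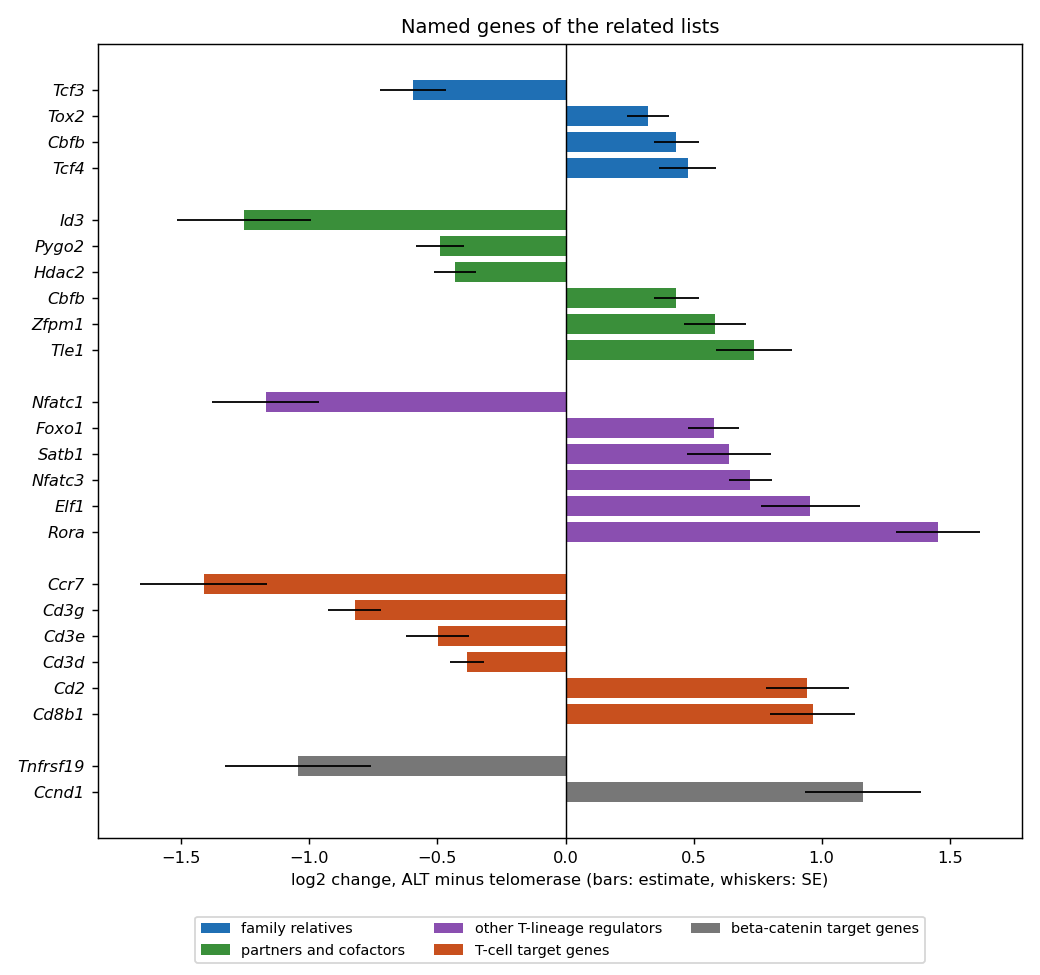
Log2 change in signal, ALT minus telomerase (horizontal axis), of up to 6 called genes with the smallest p in each of the 5 related lists; bars are the limma estimate and whiskers its SE, and Cbfb stands in 2 lists. Rora reaches 1.46 on the right and Ccr7 -1.41 on the left, and each list with at least 2 genes shown has bars on both sides.

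For each called member the 3 tested genes with the most similar course over the 9 arrays were found by the root mean square difference of gene-centred log2 values. Bcl11b was closest to Tnnt1 (0.04), to the CD3 chain gene Cd3d (0.05) and to Ddx17 (0.05). Lef1 was closest to Gm20300 (0.12), Cisd2 (0.14) and Gm10336 (0.14), set against its own spread of 0.66. Runx1 was closest to Dnajc10 (0.07), Mrpl32 (0.09) and the ETS family gene Etv6 (0.09), and Runx3 to Nudt21 (0.09), Lsm11 (0.11) and Sod2 (0.11). Tcf12 was closest to 4930453N24Rik, Rfk and Stoml2, all at 0.07 to 0.08, and Gata3 to Rae1, Rala and Parp1, at 0.08 to 0.09. These are descriptions of likeness across arrays, for members that were called because they differ between the groups.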

How the data were processed

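RNA from 9 mouse T-cell lymphomas was measured on the Affymetrix Mouse Genome 430 2.0 array. The values are MAS5 signal intensities on a linear scale, deposited by the authors in the series' value table; MAS5 is named per the submitters' processing notes, and its version, scaling target and detection calls are not stated there. Probe sets were named from GEO's platform annotation: of 45101 probe sets, 34945 had a single gene, 932 several and 9211 none, and 64 were controls.

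Signals were analysed as log2(signal + 16), so fold changes of dim genes are understated. The probe sets in the lowest 40% by mean over all arrays were left out, and each gene was represented by its probe set with the highest mean. The 5 ALT and 3 telomerase tumours were compared with limma 3.58.1 (lmFit and eBayes with a trend) in R 4.3.3, with Benjamini-Hochberg adjustment over all genes or all probe sets and a threshold of 0.05; the parental array stayed out of the fit. The fitting code was tested on simulated data. Precision is set by how many arrays there are, and no count depth exists for this assay. Promoter sequences and gene order come from RefSeq (GRCm38.p6), and figures were drawn with matplotlib 3.10.9.

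The named genes were every member with all its probe sets, at most 6 called genes with the smallest p of each related list, and the 3 genes most alike to each called member. Some further list and marker genes were named after their values were seen. The members and lists were chosen with earlier results of these data known. Alternatives changed the pseudocount, the filter, the scaling, the moderation, the threshold, the place of the parental array, the choice of probe set, the arrays left out, the replicate block and the handling of pancreatic transcripts. Whether tumours with the same number in both groups are paired is not stated, and their deviations could not decide it. The main fit used no pairing.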

Additional observations from a re-analysis of the deposited data

Results flagged for a closer look

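Of the 27 member probe sets, 1 had an ALT tumour far from the others: Runx3 (1440275_at), where ALT 1 read 843 and the other 4 ALT tumours 988 to 1039. The gap to the nearest tumour was 0.741 of the group's range, above Dixon's critical value of 0.71 for 5 samples. Chance gives such a gap in about 1 of 20 groups. Without ALT 1 the Runx3 log2 change was 0.90 (limma adjusted p = 0.000680), against 0.84 with it.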

How the results depend on the processing

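The 6 member calls kept their direction under all 24 alternatives. The count of called members was 5 without telomerase 2 and 5 with the replicate number as a block, when Gata3 missed the threshold (adjusted p of 0.0533 and 0.0669), and 5 to 6 over all leave-one-out fits. It was 2 in the arrays without pancreatic transcripts and 3 in the arrays with them, and 6 under the others. Called member probe sets went from 16 to 5 in each of these subsets, to 14 with the block, and to 13 to 16 with an array left out. All genes called went from 2160 to 982 with the block, 836 without pancreatic transcripts, 334 with them, and 1152 (without telomerase 1) to 2079 with an array left out. Calls in the related lists went from 29 to 11, 14 and 3, and to 18 (without telomerase 1) to 31 with an array left out. These subsets hold fewer arrays. Quantile normalisation left the number of all genes called near that of the main fit, at 2142, but changed its balance. With it 1113 were higher and 1029 lower, against 923 and 1237 in the main fit.

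Same-numbered tumours had correlations of deviations of -0.30, -0.40 and -0.57. Each such pair joins an array with pancreatic transcripts to an array without them. These values therefore cannot decide whether the numbers pair the tumours, which the labels do not state. The block fit is given as an alternative.

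Changes of sign occurred only in members and probe sets that did not pass, and the cause was not tested. Tox had -0.0757 as the mean of its probe sets. Ikzf1 and its probe set 1436312_at had 0.0574 without pancreatic transcripts and -0.119 to 0.0146 with an array left out, the highest without ALT 5; 1421303_at had 0.126 in the arrays with them. Tox 1425483_at had 0.0487 in the arrays without them and -0.293 to 0.00661 with an array left out, the highest without telomerase 2. Runx1 1427650_a_at had -0.00142 in the arrays with them and -0.111 (without telomerase 1) to 0.219 with an array left out, and 1452530_a_at had 0.0726 there. Zbtb7b gave no value with the lowest 60% left out or as the mean of probe sets, and 1427650_a_at and 1452530_a_at none with the lowest 60% left out. Signals of dim probe sets such as those of Zbtb7b limit what can be detected.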
